A study of Zea mays with 6 samples.

Results

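Heat shock protein chaperones were represented by 5 gene models of the 44351 listed in each library. They were chosen by identifier with no rule on their values, although earlier results of these data were known. The genes were Zm00001d038806 (hsp101), Zm00001d024903 (an HSP90), Zm00001d028408 (hsp26, a plastid small HSP), and Zm00001d028557 and Zm00001d028561 (class I small HSPs). These names were taken as given, because neither the deposited tables nor the RefSeq gene table used here pairs the identifiers with symbols. The libraries were made from leaves of the maize inbred KN5585. The 3 control libraries came from non-transgenic plants and the 3 transgenic libraries from a strain carrying a transgene, ZmSUS1 according to the series title. ZmSUS1 names a sucrose synthase, an enzyme of sucrose cleavage. The sources used here do not give the promoter of the transgene, the number of independent transformants or the age of the plants. Every sample label gives 3 days of drought and the series text gives 5 days, yet the treatment label of the controls reads normal. If the controls were watered, drought and transgene cannot be told apart in any difference below. No label mentions a heat treatment.

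Heat shock proteins keep other proteins soluble and folded when heat, drought or oxidation unfolds them. Small HSPs bind unfolding proteins and hold them without using ATP. HSP101, the plant ClpB protein, pulls proteins back out of aggregates with energy from ATP, usually together with HSP70, and plants that lack it acquire little tolerance to heat. HSP90 completes the folding of signalling proteins such as kinases and receptors, and it helps to hold heat stress transcription factors inactive until stress releases them. Many genes of these classes are low in unstressed leaves and strongly induced by heat.

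Values are FPKM, fragment numbers scaled to gene length and library size, so levels can be compared between genes per length. Summed FPKM was between 684047 and 689548 in the control and between 829541 and 831082 in the transgenic libraries. Over the 22944 genes that averaged 0.5 FPKM or more, the median log2 difference was -0.56, transgenic minus control on the log2(FPKM + 1) scale. Median-of-ratios scaling, which moves that median to -0.02, was therefore also applied, and scaled values are given beside the deposited ones. Depth in fragments is unknown, so the precision of low values cannot be stated. The leaf identity of the samples was not checked, since no marker symbol is paired with an identifier. In such bulk leaf samples, fewer cells of a type and less RNA per cell cannot be told apart.

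Transcripts of hsp101 were 10.05 times scarcer in the transgenic leaves as deposited, and 6.25 times after scaling, while those of the class I small HSP gene Zm00001d028557 were lower by a much smaller factor. The HSP90 gene, hsp26 and the second class I gene were near the bottom of the measured range in both groups. The mean over the 6 libraries reached 0.5 FPKM for 2 of the 5 genes, hsp101 and Zm00001d028557, and both passed the test as lower in the transgenic leaves (limma on log2(FPKM + 1), Benjamini-Hochberg adjusted p of 0.05 over 22944 genes). Of all genes tested, 67.7% were called lower, and 36.9% after scaling, so a lower call by itself does not set these genes apart. In 4 of the 5 genes every transgenic library lay below every control library, which held for 39.2% of all 44351 genes listed. After scaling this was so for 3 of the 5 genes and for 22.6% of all genes. Single libraries listed between 28298 and 29376 genes above 0. Genes at 0 in every library, whose number was not counted, cannot meet this rule. Both shares are therefore lower than those among detected genes, to which the 5 chaperones belong.

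**Figure D1:**
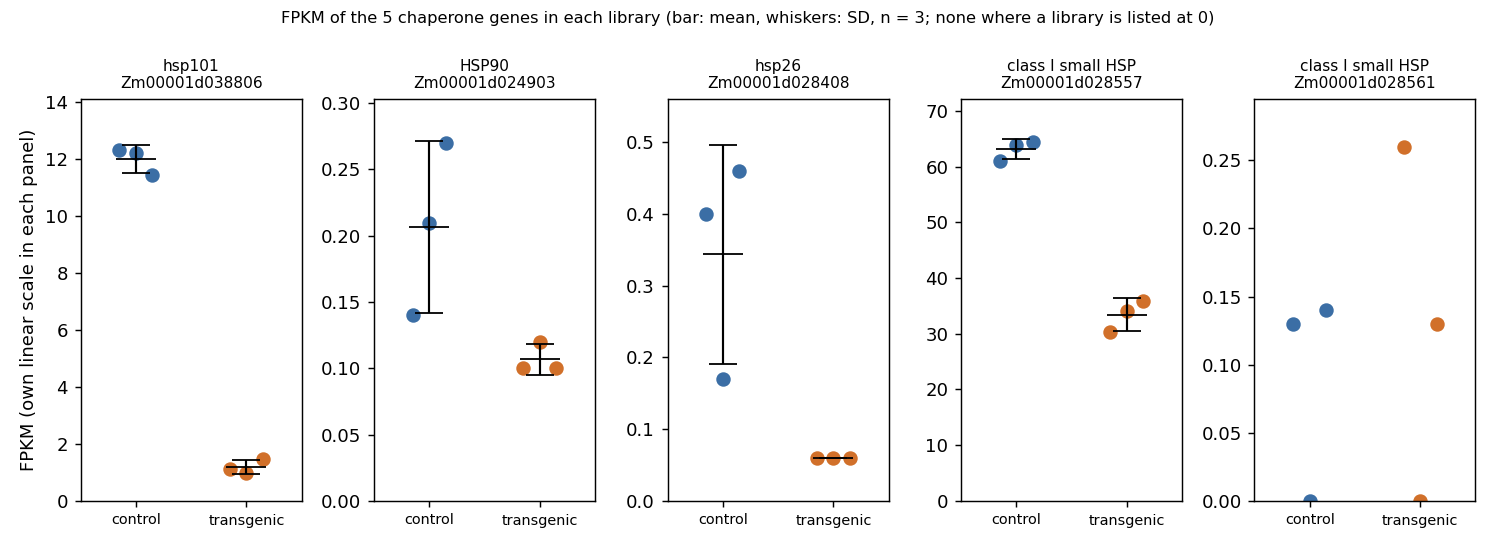
FPKM of each chaperone gene (vertical axis, a separate linear scale from 0 in each panel) in the 3 control and 3 transgenic libraries; points are libraries, bars are means and whiskers are SD (n = 3). The transgenic points of hsp101 lie between 0.98 and 1.48 FPKM, far below the control points between 11.43 and 12.33 FPKM, whereas both groups of Zm00001d028561 span 0 and overlap.

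The disaggregase gene hsp101 stood at 12.33, 12.21 and 11.43 FPKM in control replicates 1 to 3 and at 1.12, 0.98 and 1.48 FPKM in transgenic replicates 1 to 3. All control values were high and close together, all transgenic values were low, and the groups did not overlap. The means were 11.99 ± 0.49 and 1.19 ± 0.26 FPKM (SD, n = 3 each), a ratio of 10.05 on the deposited scale and 6.25 after scaling. On the log2 scale hsp101 fell by 2.57 (SE 0.10, 95% interval -2.79 to -2.35, limma adjusted p = 4.0e-08). The scaled log2 difference was -2.06 (95% interval -2.30 to -1.82, limma adjusted p = 3.0e-07). Of the 22944 genes tested, 310 (1.35%) had a difference as low as that of hsp101 or lower, and 309 (1.35%) after scaling. The position of hsp101 in the distribution was thus the same on both scales. Apart from the effect of the pseudocount, 1 factor per library keeps the order of genes, so this is no separate support. The pseudocount of 1 reduces the size of this difference, because the transgenic values are close to 1 FPKM; with a pseudocount of 0.1 the log2 difference was -3.24.

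The most abundant of the 5 genes was Zm00001d028557, labelled as a class I small HSP, the cytosolic class that holds unfolding proteins. It stood at 61.05, 63.97 and 64.48 FPKM in control leaves, against 30.24, 34.14 and 35.92 FPKM in transgenic leaves. The control libraries were all higher than the transgenic ones, by a ratio of means of 1.89, smaller than that of hsp101. The means were 63.2 ± 1.9 and 33.4 ± 2.9 FPKM (SD, n = 3 each), a log2 difference of -0.90 (SE 0.06, 95% interval -1.04 to -0.76, limma adjusted p = 1.3e-06). After scaling the means were 49.5 ± 1.4 and 42.1 ± 3.6 FPKM and the log2 difference was -0.23 (95% interval -0.37 to -0.10, limma adjusted p = 0.0069). Among all genes tested, 29.1% were as low or lower as deposited and 36.4% after scaling. The size of the decrease therefore rests largely on the scaling between libraries. When every gene listed was tested on the scaled values the call was lost (limma adjusted p = 0.060). The log2 difference was -0.23 in that test too, and its SE was 0.069 in place of 0.059. The genes added to the test change only the variance estimate and the adjustment.

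**Figure D2:**
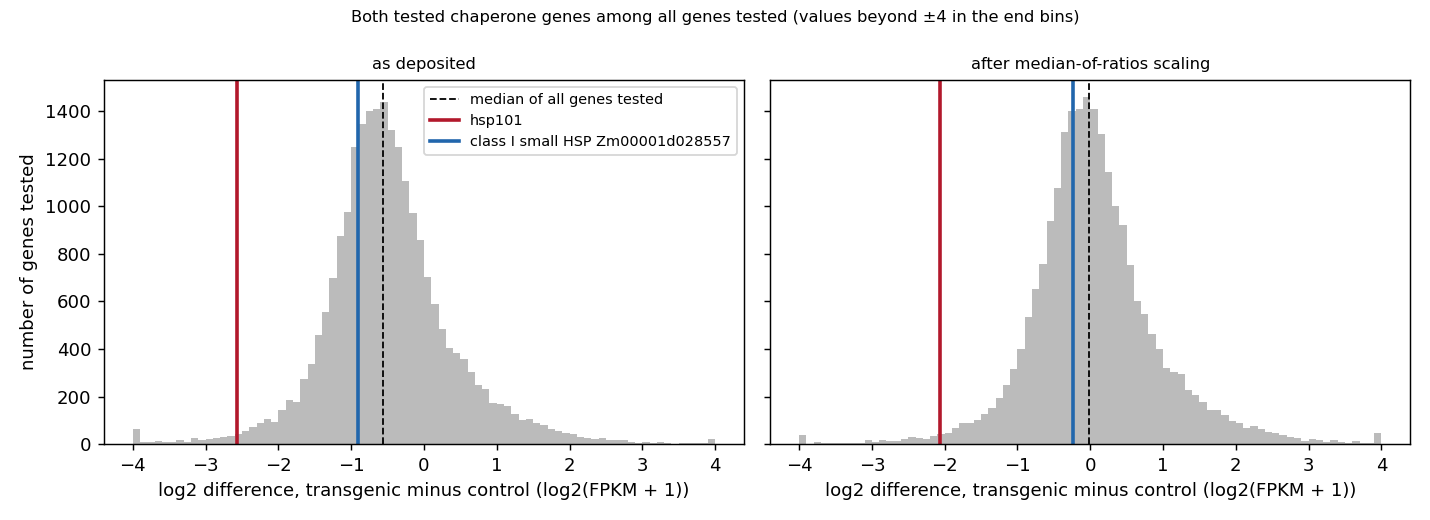
Number of genes tested (vertical axis) by log2 difference, transgenic minus control, in steps of 0.1, as deposited (left) and after median-of-ratios scaling (right); coloured lines mark hsp101 and Zm00001d028557, and the dashed line marks the median of all genes tested. The line of hsp101 stands in the lower tail in both panels, at -2.57 and -2.06, and that of Zm00001d028557 inside the bulk, at -0.90 and -0.23.

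The plastid small HSP gene hsp26, whose product protects chloroplast proteins, was listed at 0.40, 0.17 and 0.46 FPKM in the control libraries. In each of the 3 transgenic libraries it was listed at 0.06 FPKM. All control values were the higher ones and the groups did not overlap on either scale, but the levels were very low throughout. The mean over all libraries, 0.20 FPKM, was below the 0.5 FPKM required for the test. Tested among all 44351 genes listed, it had a log2 difference of -0.34 (limma adjusted p = 0.039), and of -0.23 on scaled values (limma adjusted p = 0.075). Of all genes listed, 35.6% were called lower in the first of these tests and 18.5% in the second. Undetected genes, which cannot be called, are included, so the shares among detected genes are higher. Values rounded to 2 decimals cannot show the spread between the equal transgenic libraries, which a test of them may understate.

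The HSP90 gene was listed at 0.14, 0.21 and 0.27 FPKM in control leaves, against 0.10, 0.12 and 0.10 FPKM in transgenic leaves. The lowest control value lay just above the highest transgenic value as deposited, and the groups overlapped after scaling. Its log2 difference was -0.12 among all genes listed (95% interval -0.24 to -0.01, limma adjusted p = 0.082) and -0.03 on scaled values (limma adjusted p = 0.60). It did not pass the test on either scale. These values concern 1 gene model only, and other HSP90 genes were not analysed here.

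The second class I small HSP gene, Zm00001d028561, was listed at 0.13, 0 and 0.14 FPKM in control leaves, against 0.26, 0 and 0.13 FPKM in transgenic leaves. One library of each group was listed at 0, and the groups overlapped fully. The log2 difference among all genes listed was 0.05 (95% interval -0.23 to 0.33, limma adjusted p = 0.94), and its sign turned when control replicate 2 (-0.01) or transgenic replicate 1 (-0.03) was left out. Apart from the single value of 0.26 FPKM, the values above 0 were 0.13 or 0.14 FPKM. Such steps can arise from very few fragments, whose number was not derived. Although both are labelled class I small HSPs, Zm00001d028557 was above 30 FPKM in every library and Zm00001d028561 at most 0.26 FPKM. Reads that similar genes share could have been counted for either; no other gene had the same 6 values as any of the 5 genes.

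The order of the levels was clear only at the top. In every library Zm00001d028557 was highest and hsp101 came next, with no overlap between their values in either group. Below them, the control values of hsp26 (0.17 to 0.46 FPKM) and of HSP90 (0.14 to 0.27 FPKM) overlapped, and the highest value of Zm00001d028561 (0.14 FPKM) equalled the lowest of HSP90. In the transgenic libraries HSP90 (0.10 to 0.12 FPKM) was above hsp26 (0.06 FPKM) in each library, and Zm00001d028561 (0 to 0.26 FPKM) overlapped both.

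Ranks within a library do not depend on a scaling factor. By FPKM, hsp101 ranked 9701, 9758 and 10199 in the control libraries and 18844, 19334 and 17850 in the transgenic libraries. Between 33.0% and 34.9% of the detected genes were above it in the control libraries and between 63.1% and 68.3% in the transgenic libraries, so it moved from the upper to the lower part of the detected genes. For Zm00001d028557 these shares were 6.12% to 6.48% (control) and 8.80% to 10.4% (transgenic), near the top in both. For hsp26 they were 79.9% to 89.0% in the control and 95.4% in each transgenic library, and for HSP90 85.1% to 90.3% and 90.5% to 91.8%.

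**Figure D3:**
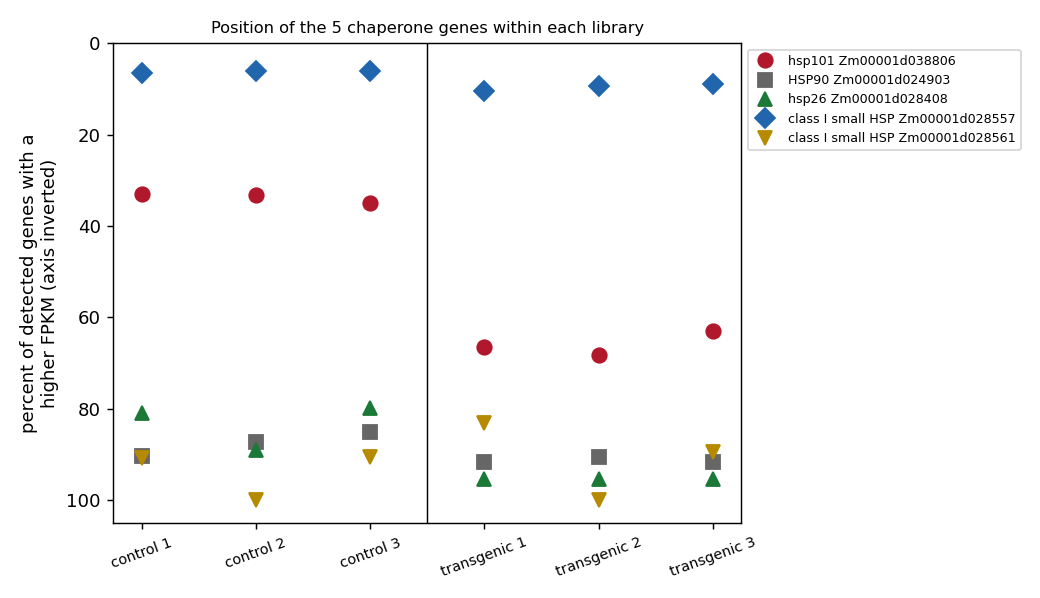
Percent of the detected genes of a library that had a higher FPKM than the gene shown (vertical axis, inverted so that abundant genes are at the top) for the 5 chaperone genes in each of the 6 libraries (horizontal axis). Points of hsp101 drop from 33.0% to 34.9% in the control libraries to 63.1% to 68.3% in the transgenic libraries, while those of Zm00001d028557 stay between 6.12% and 10.4%.

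Levels of both well-expressed chaperones were also compared within each library. The level of hsp101 was 20.2%, 19.1% and 17.7% of that of Zm00001d028557 in the control libraries. In the transgenic libraries it was 3.70%, 2.87% and 4.12%. This percentage is unaffected by any scaling factor of a library, its means differed 5.33-fold, and its groups did not overlap. On the log2(FPKM + 1) scale, which reduces the change and is not free of scaling, the ratio changed by -1.67, from -2.30 ± 0.09 to -3.98 ± 0.15 (SD, n = 3 each; two-sided p = 0.1 by exact permutation, the minimum for groups of 3 and 3). With a pseudocount of 0.1 the change was -2.32. All 10 ratios between the 5 genes were compared, and the smallest p adjusted over the 10 was 0.11, so none could pass. In 9 of the 10 ratios at least 1 of the genes was below 0.5 FPKM in every library, so these follow mainly the other gene or small differences near 0.

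Summed over the 5 genes, the level was 74.1, 76.6 and 76.8 FPKM in the control libraries. In the transgenic libraries it was 31.8, 35.3 and 37.7 FPKM, with no overlap. The means were 75.8 ± 1.5 and 34.9 ± 3.0 FPKM (SD, n = 3 each), or 59.4 ± 1.1 and 43.9 ± 3.7 FPKM after scaling. Zm00001d028557 made up 82.4% to 84.0% of this sum in control leaves and 95.2% to 96.7% in transgenic leaves, and hsp101 14.9% to 16.7% and 2.78% to 3.93%. The median log2 difference over the 5 genes was -0.34, beside -0.56 over all genes tested, and it belongs to hsp26, one of the low genes. The order of both medians turned with the setting: they were -0.23 and -0.02 after scaling, -0.92 and -0.69 with a pseudocount of 0.1, and -0.34 and -0.05 over all genes listed. The sets are unlike. Genes tested averaged 0.5 FPKM or more, which 3 of the 5 members did not, and all genes listed include undetected ones.

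The spread among replicates was measured for both abundant genes. The coefficient of variation of hsp101 was 4.08% among control and 21.6% among transgenic libraries, and that of Zm00001d028557 was 2.93% and 8.69%. Medians over all genes tested were 6.16% and 7.46%. For hsp101 the larger relative spread in the transgenic libraries goes with values near 1 FPKM. No label ties a library to its own plants, so every p-value refers to the variation among these libraries, which may be technical.

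For each chaperone, 3 gene models were taken as closest in profile, by the root mean square distance over the 6 libraries between log2(FPKM + 1) values centred on the control mean. The closest to hsp101 was Zm00001d026614, at a distance of 0.0416, with 17.19, 17.12 and 16.12 FPKM in control leaves and 1.81, 1.58 and 2.52 FPKM in transgenic leaves. As for hsp101, replicate 3 was the lowest control library and the highest transgenic one, a likeness that the choice by these values favours. All genes named as closest were chosen by the values tested, so their likeness and p-values are no separate evidence. Zm00001d013912 (distance 0.0642) fell from 123.0 ± 2.9 to 19.7 ± 1.3 FPKM and Zm00001d038267 (distance 0.0689) from 87.6 ± 2.1 to 14.3 ± 1.0 FPKM (means ± SD of 3 libraries; limma adjusted p = 6.7e-10 and 1.2e-09).

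Closest to Zm00001d028557 were Zm00001d036758, Zm00001d015851 and Zm00001d011411, at distances of 0.0241, 0.0253 and 0.0311. Their control means were 23.6, 16.7 and 16.6 FPKM and their transgenic means 12.2, 8.52 and 8.42 FPKM. With scaling their log2 differences were -0.26, -0.27 and -0.27, close to the -0.23 of the chaperone gene, which the choice by profile largely fixed. The genes closest to HSP90 (Zm00001d024301, Zm00001d003928 and Zm00001d040515) had log2 differences from -0.13 to -0.10 as deposited, each called lower, and from 0.52 to 0.57 after scaling, each called higher. Those closest to hsp26 (Zm00001d051682, Zm00001d030895 and Zm00001d034494) had differences from -0.36 to -0.29 as deposited, each called lower, and from 0.15 to 0.34 after scaling. Those closest to Zm00001d028561 (Zm00001d024126, Zm00001d026608 and Zm00001d016586) were each at 0.03 as deposited, not called, and from 0.25 to 0.64 after scaling. The 3 low chaperones were matched on the log2(FPKM + 1) scale, where their own differences are small, and the direction of the genes matched to HSP90 and hsp26 turned with the scaling. These gene models carry no symbol in the sources used here. When likeness was measured by correlation instead, none of the 3 genes was chosen again for hsp101, HSP90, hsp26 or Zm00001d028557. For Zm00001d028561, 2 of 3 were. By Pearson r the 3 genes named for hsp101 came at places 25, 235 and 258. An r above 0.99 was reached by 4998 tested genes for hsp101 and by 1660 for Zm00001d028557. For HSP90, hsp26 and Zm00001d028561 it was reached by 1, 5 and 2 genes. Falls patterned like those of hsp101 and Zm00001d028557, whatever their size, were thus common.

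Gene models with adjacent identifier numbers were compared as well. Within 5 numbers on either side of hsp101, 9 identifiers were listed and tested; 7 were lower and 1 was higher (limma adjusted p of 0.05), against 67.7% lower and 16.3% higher among all genes tested. After scaling 4 were lower and 3 higher, against 36.9% and 36.3%. The 4 lower ones were the nearest 2 on each side, a position noticed after their values were seen. Zm00001d038805 stood at 33.74, 34.91 and 33.64 FPKM in control leaves, against 9.39, 9.33 and 8.52 FPKM in transgenic leaves. Zm00001d038807 stood at 15.37, 15.88 and 14.07 FPKM in control leaves, against 4.01, 4.27 and 3.71 FPKM in transgenic leaves. Neither overlapped between the groups. The scaled log2 differences of Zm00001d038804, Zm00001d038805, Zm00001d038807 and Zm00001d038808 were -0.93, -1.16, -1.09 and -1.07, each smaller in size than the -2.06 of hsp101 (limma adjusted p from 1.1e-07 to 1.8e-06). Whether they lie beside hsp101 on the chromosome was not looked up, as the reference table does not hold these identifiers.

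Around Zm00001d028557, 6 of 8 listed neighbours in number were tested. As deposited 5 were lower and 1 higher, against 67.7% and 16.3% of all genes tested. After scaling 3 were lower and 2 higher, against 36.9% and 36.3%. Around all 5 chaperones together, 25 neighbours were tested. Of these, 17 were lower and 4 higher as deposited, and 8 lower and 8 higher after scaling, near the shares over all genes. The 1 higher neighbour of Zm00001d028557 as deposited, Zm00001d028562, carries the number next to the near-silent class I gene Zm00001d028561. It rose from 93.47, 90.02 and 91.73 FPKM in the control to 312.98, 311.46 and 305.07 FPKM in the transgenic libraries, with no overlap. Its log2 difference was 1.74 (SE 0.02, limma adjusted p = 1.0e-10), or 2.42 after scaling.

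**Figure D4:**
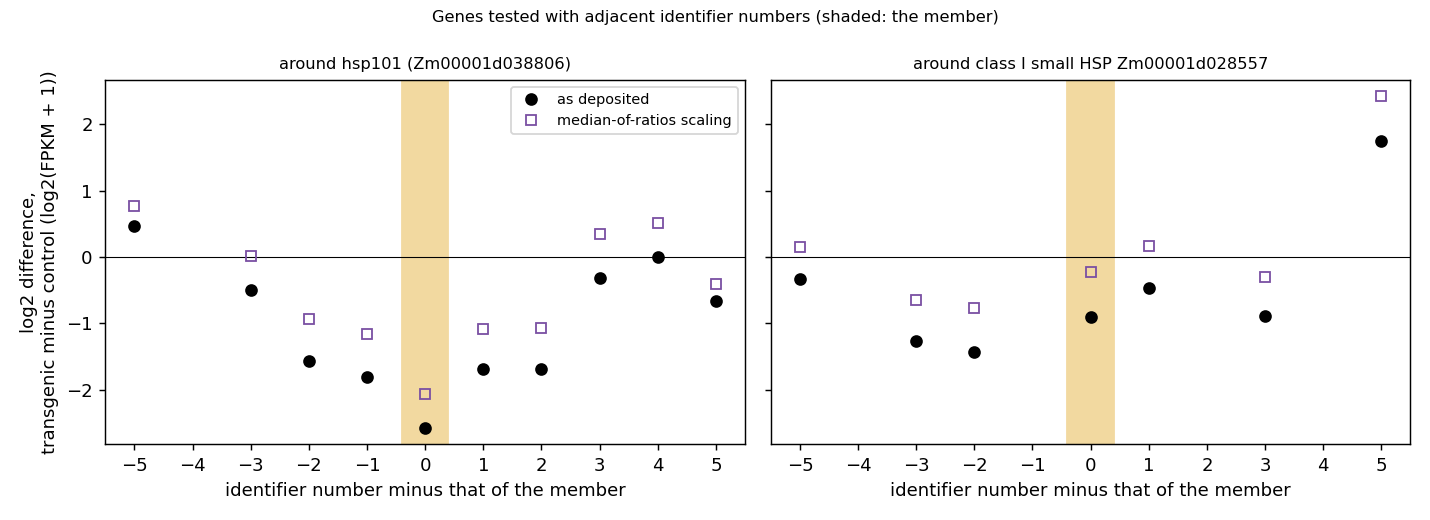
Log2 difference, transgenic minus control (vertical axis), of each tested gene model within 5 identifier numbers (horizontal axis) of hsp101 (left) and Zm00001d028557 (right), as deposited (filled points) and after median-of-ratios scaling (open squares). Around hsp101 the scaled values of the nearest 4 neighbours lie between -1.16 and -0.93, above the -2.06 of hsp101, and at the right end of the other panel Zm00001d028562 lies at 1.74 and 2.42.

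The calls of hsp101 and Zm00001d028557 were repeated under 16 other settings. For hsp101 the log2 difference ranged from -3.24 to -2.06 and the limma adjusted p reached 0.00017 at most. For Zm00001d028557 it ranged from -1.17 to -0.23, negative throughout, with the call lost under 1 setting as given above.

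**Figure D5:**
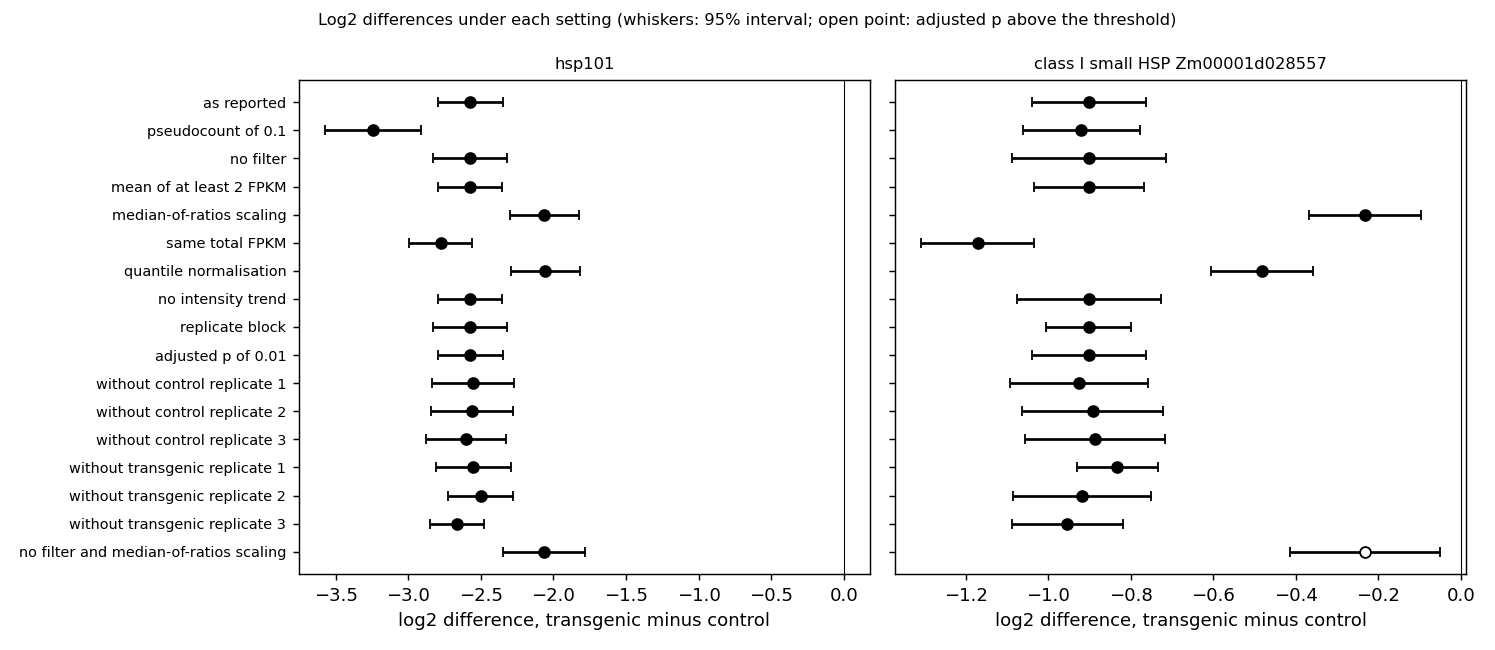
Log2 difference, transgenic minus control (horizontal axis), of hsp101 (left) and Zm00001d028557 (right) as reported and under 16 other settings (vertical axis); whiskers are 95% intervals and the open point marks an adjusted p above the threshold. All points lie below 0, those of hsp101 between -3.24 and -2.06 and those of Zm00001d028557 between -1.17 and -0.23.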

How the data were processed

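Total RNA of leaves was made into mRNA libraries with a SMARTER kit, per the labels' protocols. Each library has its own table of FPKM, deposited by the authors at 2 decimals, per the file headers. DESeq2 (no version) and the mouse build mm10 appear in the submitters' processing notes, although the identifiers belong to maize. The sources used here give no aligner, counting program, strand setting or maize build. No read number could be recovered: for 335 low genes, ratios of values between libraries clustered at no common step.

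limma 3.58.1 (R 4.3.3) was run on log2(FPKM + 1) for genes averaging 0.5 FPKM or more, with a group term alone, an intensity trend and two-sided p adjusted by Benjamini-Hochberg across them; this scale understates fold changes of low genes. Median-of-ratios factors came from 24566 genes above 0 in every library. Groups followed the titles. Log ratios of 2 members were compared with exact permutation tests. Other steps used pandas 2.3.3, scipy 1.17.1 and, for plots, matplotlib 3.10.9 under Python 3.11.15. On simulated data for transgenic against control (22944 genes) recovery was 22.4% for 67 genes at 1.25-fold, 53.7% for 67 at 1.5-fold and 75.8% for 66 at 2-fold, and 6 unchanged genes were called. In that simulation 22744 genes were unchanged and all changes were increases. In the data 67.7% of genes tested were called lower and 16.3% higher, so recovery there can differ.

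The members and rules were chosen with earlier results of these data known. Named genes were the 5 members, the 3 closest profiles of each, and genes within 5 identifier numbers. Planned counts of other chaperone genes, the leaf marker check and promoter motifs were left out, since 0 of 44146 Zm00001d and 0 of 51 GRMZM identifiers matched the RefSeq table (Zm-B73-REFERENCE-NAM-5.0); hsp101 and hsp26 appear there only as synonyms under other identifiers. The median over members covers all 5, tested or not. Alternatives were another pseudocount, filters, scalings, variance model, a replicate block, a stricter threshold and leaving out each library.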

Additional observations from a re-analysis of the deposited data

How the results depend on the processing

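The count of members called, 2, was 3 without a filter, where hsp26 was added, and 1 without a filter and with median-of-ratios scaling, an alternative chosen after seeing the data. It was 2 with the other alternatives, the replicate block included, and 2 whichever library was left out. Only 2 members entered the tests with a filter, so no more could be called there. Of all genes in the test, 67.7% were called lower as reported and 36.9% with median-of-ratios scaling. Without a filter the shares were 35.6% as deposited and 18.5% with that scaling. Shares under the other alternatives are not given here. The median log2 difference over the members, -0.34, was -0.92 with a pseudocount of 0.1, -0.23 with median-of-ratios scaling, -0.38 with the same total FPKM and -0.23 with quantile normalisation, and ranged from -0.43 to -0.27 when single libraries were left out. The difference in summed FPKM, -40.9, was -15.4 with median-of-ratios scaling, -51.9 with the same total FPKM and -24.3 after quantile normalisation, because these settings rescale every value. It ranged from -42.3 to -39.3 when single libraries were left out. The log2 ratio of hsp26 over Zm00001d028557 changed by 0.57 with a pseudocount of 1 and by -0.48 with 0.1; hsp26 was below 0.5 FPKM in every library. The difference of Zm00001d028561 turned to -0.01 without control replicate 2 and ranged from -0.034 (without transgenic replicate 1) to 0.13 when single libraries were left out. With single libraries left out, hsp101 ranged from -2.66 to -2.50 and Zm00001d028557 from -0.95 to -0.83 on the log2 scale. No label pairs same-numbered libraries. Once the mean of its group was subtracted from each gene, the remainders of same-numbered libraries correlated at 0.002, -0.05 and 0.002. With the replicate block hsp101 and Zm00001d028557 had limma adjusted p of 2.6e-06 and 4.5e-06. Pairing by number leaves the mean change of the ratio of hsp101 over Zm00001d028557 at -1.67 by arithmetic, so that value is no check. Without read numbers, differences of genes below 0.5 FPKM could not be resolved.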

Other observations

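Some gene models numbered around the HSP90 gene were listed at 0 in these leaves. Within 5 numbers on either side of Zm00001d024903, 9 identifiers were listed, and 5 of them were at 0 in all 6 libraries. Single libraries listed between 28298 and 29376 of the 44351 genes above 0. The share of all genes at 0 in every library was not counted. Zm00001d024904, the next number, had 0.20, 0.08 and 0.02 FPKM in transgenic leaves, and all 3 control libraries list it at 0. Zm00001d024906 was expressed, at 15.2 ± 0.6 FPKM in control leaves and 16.7 ± 0.5 FPKM in transgenic leaves (SD, n = 3 each; log2 difference 0.13, limma adjusted p = 0.033). After scaling its log2 difference was 0.77 (limma adjusted p = 1.4e-06).

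Next to hsp26 in number, Zm00001d028409 rose from 4.16, 3.62 and 3.70 FPKM in the control to 7.44, 7.43 and 7.01 FPKM in the transgenic libraries (log2 difference 0.78, limma adjusted p = 1.0e-05; 1.35 after scaling). All its transgenic values were above all its control values, the opposite order to that of hsp26.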
